A study of Mus musculus with 14 samples.

Results

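The genes described here encode the enzymes and carriers of mitochondrial and peroxisomal fatty acid oxidation in mouse regulatory T cells (Tregs), the Foxp3-expressing T cells that restrain immune responses. They were chosen by name from a list of 30 genes. A row for 28 of them was among the 22255 genes of each expression table. Cpt1b and Acad11 had no row and were not analysed here. The 14 libraries held Tregs of mice aged 8 weeks. Spleen Tregs (4 libraries), lymph node (LN) Tregs (4) and Tregs from Yumm1.7 melanoma tumors (3, called WT tumor) came from the strain FoxP3-YFPCre+/+. Melanoma Tregs labelled CD36 KO (3, called KO tumor) came from the strain CD36floxed FoxP3-YFPCre+/-. Every group thus carried the Cre and reporter allele at Foxp3. In the KO tumor group Cd36, which encodes a fatty acid transporter of the cell surface, was floxed, and the Cre driven from Foxp3 is meant to delete it in Foxp3-expressing cells. The strains also differ in the label of the Cre allele (+/+ against +/-), which cannot be told apart from the Cd36 genotype. Libraries are named by group and label number. The labels do not say which libraries came from separate mice, so p-values measure the spread between these libraries, which may be technical. The study asked how Treg expression differs between tissues and between CD36-deficient and WT tumor Tregs.

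Fatty acid oxidation removes carbon from acyl-CoA as acetyl-CoA by repeated dehydrogenation, hydration, a second dehydrogenation and thiolysis. Long-chain acyl groups enter mitochondria through the carnitine shuttle, and the electrons of the first dehydrogenation pass through the electron transfer flavoprotein to the respiratory chain. Peroxisomes run a related pathway on very long and branched chains. Tregs are known for relying on lipid oxidation more than many effector T cells do.

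Expression was measured by Smart-Seq2 sequencing of low-input total RNA and was deposited as FPKM, fragments per kilobase of transcript, scaled to the mapped fragments of the library. Depth, estimated from the steps between low values, ran from 10680000 to 21420000 reads a library, so that 3 reads per kilobase of transcript equal 0.140 to 0.281 FPKM. All LN libraries (18420000 to 21420000 reads) were deeper than every library of the other groups (10680000 to 17100000). The WT tumor libraries had 10680000 to 14420000 reads. The part of depth in the comparisons with LN was not tested. All 7 Treg markers reached 1 FPKM in every library, and melanoma markers summed to at most 1.84 FPKM in any library. Markers of macrophages or monocytes (10 genes) summed to 271 to 711 FPKM in Spleen, 4.04 to 36.1 in LN, 1.18 to 107 in WT tumor and 306 to 415 in KO tumor libraries. B cell markers (8 genes) summed to 75.0 to 293 FPKM in Spleen, and 7.16 to 121 in the other groups. Those of CD8 T or NK cells (5 genes) summed to 7.78 to 66.8 FPKM in Spleen and 0.110 to 5.54 in LN. Their sum was 21.5 to 63.2 FPKM in WT tumor and 12.1 to 34.3 in KO tumor. Hemoglobin and other erythroid markers (6 genes) varied from 63.3 to 16427 FPKM. Their part in the results below was not tested. Cd36 itself was listed at 0 in 10 libraries, all LN and WT tumor libraries among them, and at 1.06 FPKM in KO tumor 2, so it does not check the genotype labels.

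The fatty acid oxidation genes were expressed in Tregs of all groups, at very different levels. Of the 28 genes, 10 reached at least 1 FPKM in every library and 22 did so in 7 or more of the 14. Their summed level was 410 to 764 FPKM, which is 0.0832 to 0.133% of all FPKM of a library. Ech1, which encodes a peroxisomal and mitochondrial dienoyl-CoA isomerase, had the highest mean over the 14 libraries (151 FPKM). Etfb, the beta subunit of the electron transfer flavoprotein, came next with 125 FPKM. These 2 genes made up 30.9 to 65.0% of the summed level in a library. Acaa2, Acaa1a, Eci1, Echs1 and Hadha followed with means of 46.2, 43.1, 41.6, 33.6 and 27.2 FPKM. Ehhadh, Acadvl, Crat and Etfdh had the lowest means, each under 1 FPKM. FPKM is scaled by transcript length, so levels of different genes can be set side by side, but an FPKM value can be a failed estimate in these tables. Gapdh, a glycolytic gene that every cell uses, was listed at only 2.59 to 42.4 FPKM while Actb was at 5433 to 12073. A level of 0 is therefore given below as a listed value.

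**Figure D1:**
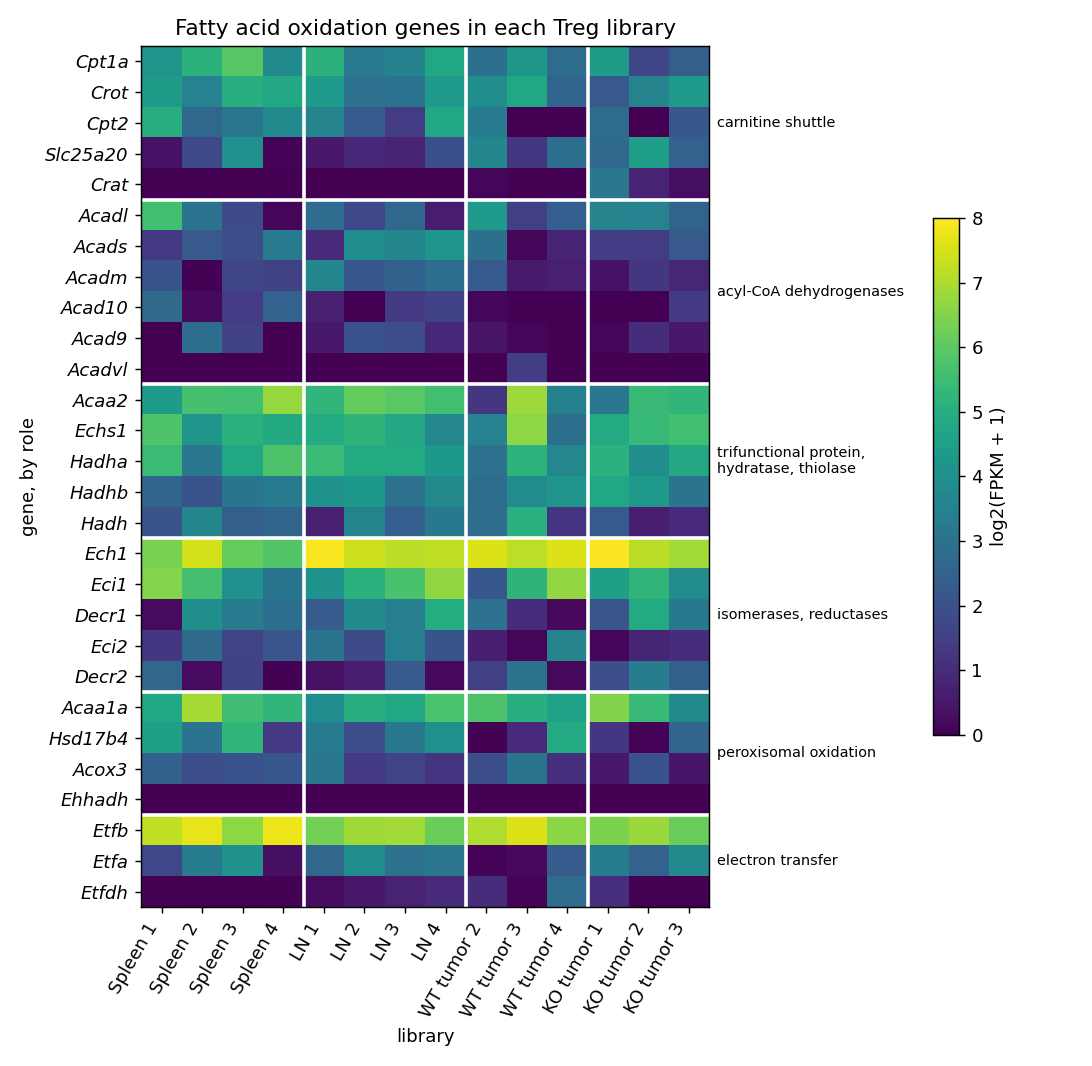
Levels of the 28 genes (rows, grouped by role) in the 14 libraries (columns), as log2(FPKM + 1) in color from 0 to 8, the top of the scale. Ech1 and Etfb are bright in every library, and Acadvl and Ehhadh are dark in nearly all.

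None of the genes passed the test in any of the 4 comparisons. The test was limma on log2(FPKM + 1) over all genes with at least 1 FPKM in 3 libraries, with Benjamini-Hochberg adjustment and a threshold of 0.05. In WT tumor against Spleen it called 1.90% of 9616 genes and 0 of the 24 fatty acid oxidation genes tested. For WT tumor against LN it called 3.04% of all genes and 0 of the 24. In LN against Spleen it called 0.499% of all genes and 0 of the 24. In KO tumor against WT tumor it called 0.280% of 8210 genes and 0 of the 21 tested. At these shares, fewer than 1 of the 24 or 21 genes would be called if they behaved like all genes. Etfdh, Crat, Acadvl and Ehhadh were below the filter in the fit of Spleen, LN and WT tumor, and 7 genes were below it in the fit of the 2 tumor groups.

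Without adjustment, the limma p was under 0.05 for 4 of 24 genes in WT tumor against Spleen (16.7%, against 14.3% of all genes): Ech1, Cpt2, Acad10 and Cpt1a. It was under 0.05 for 3 of 24 in WT tumor against LN (12.5%, against 15.6%), namely Etfa, Decr1 and Acadm. In LN against Spleen it was so for 3 of 24 (12.5%, against 10.4%), namely Ech1, Etfb and Acadm. In KO tumor against WT tumor it was so for 1 of 21, Etfa (4.76%, against 8.64%). These shares lay close to those of all genes. The comparisons share libraries: WT tumor serves in 3 of them, and Spleen and LN in 2 each.

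The intervals left room for sizable differences. The 95% interval of a gene's difference reached 1.71 on the log2 scale to either side (the median over the 24 genes) in both comparisons of WT tumor with Spleen and LN, which is 3.26-fold. For all genes tested it was 1.48, or 2.78-fold. The precision differed between genes: Ech1 and Etfb had standard errors of 0.35 and 0.34 in these comparisons, and Hsd17b4 one of 1.12. The genes' median difference in WT tumor against Spleen was -0.55 (all genes -0.07), with 18 of 24 below 0 (all genes 53.5%). Against LN it was -0.77 (all genes -0.12), with 15 of 24 below 0 (all genes 55.7%). In LN against Spleen it was -0.23 (all genes 0.02), with 13 of 24 below 0 (all genes 48.7%). In KO tumor against WT tumor it was 0.42 (all genes 0.07), with 12 of 21 above 0 (all genes 53.7%). The median of WT tumor against Spleen stayed between -0.67 and -0.41 when 1 library was left out, and the other medians moved further. Against LN, the WT tumor median was -0.10 without WT tumor 2. For LN against Spleen it ran from -0.35 without Spleen 2 to 0.10 without Spleen 3, so that its sign turned. For KO tumor against WT tumor it ran from -0.02 without WT tumor 3 to 0.40 without KO tumor 3, and was 0.04 without WT tumor 2, 0.09 without KO tumor 2, 0.17 without WT tumor 4 and 0.25 without KO tumor 1.

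**Figure D2:**
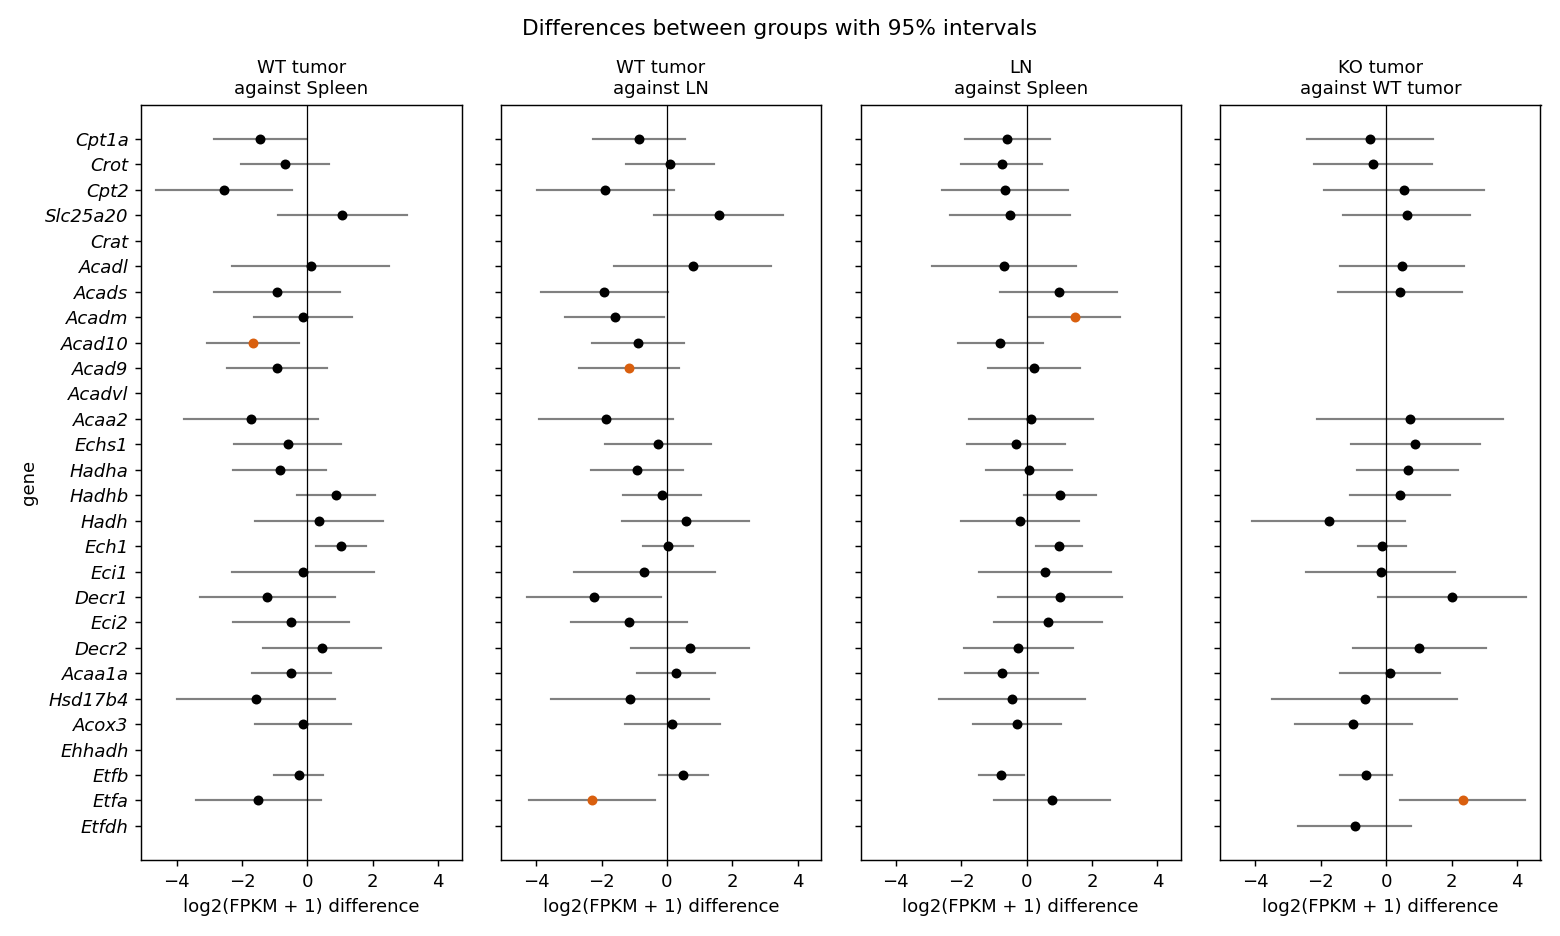
Differences in log2(FPKM + 1) (x axis) of each gene (y axis) in the 4 comparisons, as limma estimates (points) with 95% intervals (lines); orange points mark genes whose groups did not overlap. Most intervals cross 0, and genes below the filter have no point.

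Taking groups that do not overlap, 1 of 24 genes in WT tumor against Spleen had every WT tumor library outside the Spleen range (Acad10, lower), against 11.5% of all genes. Against LN it was 2 of 24 (Etfa and Acad9, both lower), against 17.0% of all genes. In LN against Spleen it was 1 of 24 (Acadm, higher), against 7.87%. In KO tumor against WT tumor it was 1 of 21 (Etfa, higher), against 14.5%. The share of these genes was below that of all genes in each comparison.

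The carnitine shuttle comes first in the pathway. Cpt1a (ENSMUSG00000024900, GRCm38 chr19:3322334-3385733) encodes carnitine palmitoyltransferase 1A of the outer mitochondrial membrane, which commits long-chain acyl groups to oxidation. Its level was 17.0, 34.1, 59.1 and 13.2 FPKM in Spleen 1 to 4 and 34.3, 8.73, 10.5 and 25.9 in LN 1 to 4. It was 6.54, 17.8 and 6.03 FPKM in WT tumor 2 to 4 and 20.1, 2.18 and 4.32 in KO tumor 1 to 3. Spleen libraries tended to be highest, but the ranges of all 4 groups overlapped. The difference was -1.44 ± 0.65 (SE) in WT tumor against Spleen (limma, adjusted p = 0.338) and -0.85 ± 0.65 against LN (adjusted p = 0.573). Between LN and Spleen it was -0.58 ± 0.60 (limma, adjusted p = 0.815), and between KO tumor and WT tumor -0.49 ± 0.85 (adjusted p = 0.933). None passed the test. Leaving out 1 library moved the value against LN from -1.31 (WT tumor 3) to -0.53 (LN 1) and that of LN against Spleen from -0.91 (LN 1) to -0.20 (Spleen 3). That of KO tumor against WT tumor moved from -1.28 (KO tumor 1) to 0.085 (KO tumor 2). Cpt1b, the muscle form, was not analysed here, and the neural form Cpt1c was listed at 0 in every library but KO tumor 1 (0.810 FPKM).

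Cpt2 (ENSMUSG00000028607, GRCm38 chr4:107903981-107923610) encodes carnitine palmitoyltransferase 2 of the inner membrane, which returns the acyl group to CoA. Its level was 30.4, 5.55, 7.82 and 13.3 FPKM in Spleen 1 to 4, and 10.9, 3.81, 1.67 and 26.1 in LN 1 to 4. It was 8.96, 0 and 0.0292 FPKM in WT tumor 2 to 4, and 6.05, 0 and 3.49 in KO tumor 1 to 3. All Spleen and LN libraries held Cpt2, while 2 of 3 WT tumor libraries and 1 of 3 KO tumor libraries listed it at or near 0. WT tumor 2, at 8.96 FPKM, lay inside the Spleen range. The difference was -2.55 ± 0.97 in WT tumor against Spleen (limma, adjusted p = 0.242) and -1.88 ± 0.97 against LN (adjusted p = 0.373). It was -0.66 ± 0.90 in LN against Spleen (limma, adjusted p = 0.874) and 0.54 ± 1.09 in KO tumor against WT tumor (adjusted p = 0.946). The 95% interval of the difference between WT tumor and Spleen ran from -4.63 to -0.46. Leaving out 1 library moved the value against LN from -2.98 (WT tumor 2) to -1.30 (LN 4), and that of LN against Spleen from -1.25 (LN 4) to -0.13 (LN 3). For KO tumor against WT tumor, Cpt2 passed the filter in 3 of the 6 fits that leave out 1 library, at -0.017 to 1.37.

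Slc25a20 (ENSMUSG00000032602, GRCm38 chr9:108662088-108684641) encodes the carnitine-acylcarnitine carrier of the inner membrane, which moves acylcarnitine inward. Its level was 0.298, 2.37, 15.04 and 0.0489 FPKM in Spleen 1 to 4, and 0.447, 0.886, 0.704 and 2.87 in LN 1 to 4. It was 11.8, 1.46 and 6.46 FPKM in WT tumor 2 to 4, and 5.71, 21.1 and 4.77 in KO tumor 1 to 3. All 6 tumor libraries were above 1 FPKM, whereas 5 of the 8 Spleen and LN libraries were under it. Spleen 2, Spleen 3 and LN 4, at 2.37, 15.04 and 2.87 FPKM, lay inside the range of the tumor libraries. The difference was 1.07 ± 0.92 in WT tumor against Spleen (limma, adjusted p = 0.650) and 1.58 ± 0.92 against LN (adjusted p = 0.440). It was -0.51 ± 0.85 in LN against Spleen (limma, adjusted p = 0.908), which became 0.31 without Spleen 3. In KO tumor against WT tumor it was 0.62 ± 0.86 (limma, adjusted p = 0.907), and it was -0.040 without WT tumor 3 and 0.014 without KO tumor 2. The value against Spleen also moved with single libraries, from 0.55 without WT tumor 2 to 1.89 without Spleen 3, and that against LN from 1.06 without WT tumor 2 to 2.24 without WT tumor 3.

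Crot (ENSMUSG00000003623, GRCm38 chr5:8966033-8997324) encodes carnitine octanoyltransferase, which exports shortened acyl groups from peroxisomes. Its level was 19.5, 10.6, 31.1 and 27.6 FPKM in Spleen 1 to 4, and 18.8, 7.09, 7.23 and 19.0 in LN 1 to 4. It was 14.2, 26.5 and 4.91 FPKM in WT tumor 2 to 4, and 3.66, 10.8 and 18.5 in KO tumor 1 to 3. Crot was above 3 FPKM in all libraries and its group ranges overlapped. The difference of WT tumor was -0.68 ± 0.63 from Spleen (limma, adjusted p = 0.685) and 0.09 ± 0.63 from LN (adjusted p = 0.971). LN differed from Spleen by -0.76 ± 0.58 (limma, adjusted p = 0.721), and KO tumor from WT tumor by -0.40 ± 0.80 (adjusted p = 0.946). The value of WT tumor against Spleen was -0.08 without WT tumor 4 and -1.19 without WT tumor 3. That against LN was 0.68 and -0.43 without the same libraries, and that of KO tumor against WT tumor ran from -0.999 without WT tumor 4 to 0.17 without KO tumor 1.

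Crat (ENSMUSG00000026853, GRCm38 chr2:30400471-30415813) encodes carnitine acetyltransferase, which balances acetyl-CoA and acetylcarnitine. It was at 8.07, 0.744 and 0.230 FPKM in KO tumor 1 to 3. In the 11 other libraries it was at most 0.0818 FPKM and was listed at 0 in 7. The KO tumor range lay above all others, but the level was above 1 FPKM in a single library, and Crat was therefore not tested in the fit. The exact two-sided permutation p for KO tumor against WT tumor was 0.1, the smallest that 3 against 3 libraries can give. Groups without overlap always give this value, so it adds nothing to the ranges. Of the 8210 genes tested in this comparison, 14.5% had groups that did not overlap, and Crat was not among those tested. Without the filter on low values, limma gave a difference of 1.39 ± 0.81 with an adjusted p of 0.754. The sum of macrophage and monocyte markers also had no overlap between these groups, at 306 to 415 against 1.18 to 107 FPKM. Taken singly, C1qa, C1qb, C1qc, Csf1r, Tyrobp and Apoe did not overlap, while Lyz2, Cd68, Adgre1 and Fcer1g did. The part of these markers in the Crat values was not tested.

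**Figure D3:**
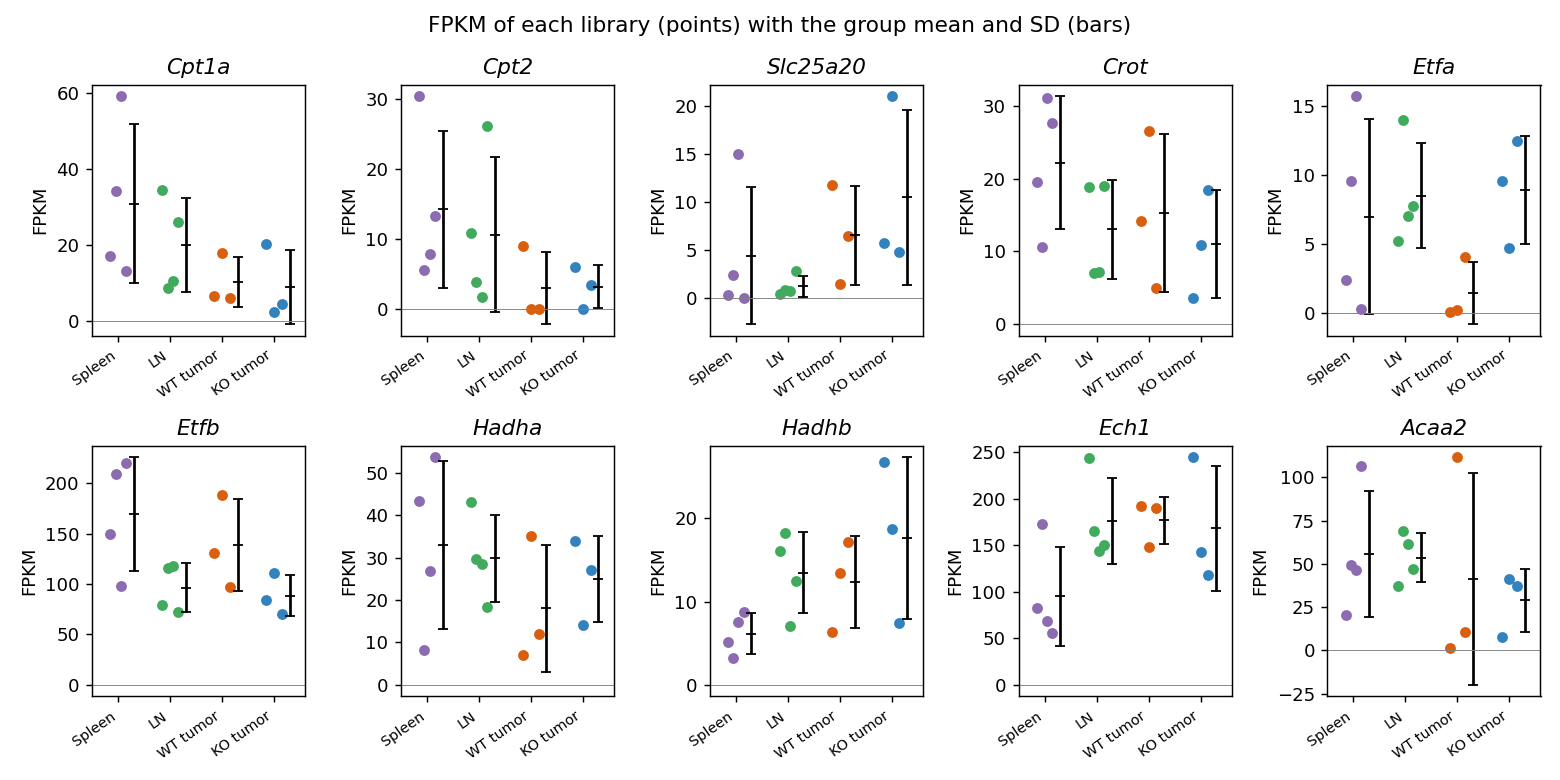
FPKM (y axis) of 10 genes in each library (points) by group (x axis), with the group mean and SD (bars). Points of Cpt1a, Cpt2 and Crot spread over the group means; Etfa is low in 2 WT tumor libraries, and Ech1 and Etfb lie above 50 FPKM everywhere.

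Sequence was examined for the genes of the shuttle and the rest of the pathway. RefSeq promoter windows of GRCm38.p6, which run from 250 bases before to 50 after a start in RefSeq, were found for 24 of the 30 genes. The Cpt1a window, chr19:3323051-3323350 on the plus strand, is shown since Cpt1a heads the pathway and its window holds a nuclear receptor core motif. This window lies inside the span given above for Cpt1a (chr19:3322334-3385733), so it does not cover the start of that span. The window of Hadhb, chr5:30155003-30155302 on the plus strand, is shown since it covers the start of a gene pair for the trifunctional protein. Capitals mark GGGCGG and AGGTCA, or their reverse complements.
Cpt1a: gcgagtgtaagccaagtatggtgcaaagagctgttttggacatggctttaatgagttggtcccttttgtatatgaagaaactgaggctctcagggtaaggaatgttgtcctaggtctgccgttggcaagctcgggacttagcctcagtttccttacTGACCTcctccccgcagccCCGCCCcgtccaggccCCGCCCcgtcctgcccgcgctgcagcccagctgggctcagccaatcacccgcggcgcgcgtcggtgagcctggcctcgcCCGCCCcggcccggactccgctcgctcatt
Hadhb: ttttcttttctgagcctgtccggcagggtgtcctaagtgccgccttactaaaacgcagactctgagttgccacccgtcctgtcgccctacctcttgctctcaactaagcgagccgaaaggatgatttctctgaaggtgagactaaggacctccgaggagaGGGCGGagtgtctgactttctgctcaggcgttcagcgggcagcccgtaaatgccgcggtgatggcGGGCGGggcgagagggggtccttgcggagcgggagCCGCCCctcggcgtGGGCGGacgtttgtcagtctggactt
The Cpt1a window has 3 GGGCGG matches and 1 AGGTCA match, and the Hadhb window has 4 GGGCGG matches. The genes Hadha and Hadhb lie head to head on chromosome 5, on opposite strands, and the windows of the 2 genes share 228 bases.

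Motif counts on both strands are descriptions of letters, not of binding. The GC box GGGCGG was found in 20 of 24 windows (83.3%), against 35.7% of all 32851 windows. The windows were also richer in G and C, with a median of 60.7% against 52.7% and 17 against 7 CpG per window. AGGTCA, the core motif of PPAR and related receptors, was found in 4 of 24 windows (16.7%, against 16.3% of all). These were Acadm, Acadvl, Cpt1a and Echs1. Its longer forms, TNAAGGTCA (1.28% of all windows) and the direct repeat spaced by 1 base (0.0396%), were in none of the 24 windows. The motif CCAAT was in 10 (41.7%, against 37.4%) and GCATGCGC in 4 (16.7%, against 2.71%), namely Acad10, Acadm, Etfa and Etfdh. TGACGTCA was in none (1.79% of all).

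The acyl-CoA dehydrogenases carry out the first oxidation, each for a range of chain lengths. Acadl (long chain) and Acads (short chain) had the highest means over the 14 libraries, 8.81 and 5.37 FPKM. Acadl varied from 0.0909 to 46.9 and Acads from 0.0796 to 17.1 FPKM. Acadvl, for very long chains, was listed at 0 in 12 libraries, and at 1.72 FPKM in WT tumor 3 and 0.0269 in KO tumor 3. Of its 2686 exonic bases, 42.9% are shared with Dvl2 on the opposite strand, and Smart-Seq2 does not mark strand, so reads of the 2 genes cannot be told apart there. Dvl2 was listed above 0 in all libraries.

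Acadm (ENSMUSG00000062908, GRCm38 chr3:153922357-153944632), for medium chains, had 3.18, 0.0397, 2.16 and 1.96 FPKM in Spleen 1 to 4 and 11.9, 3.50, 4.56 and 6.42 in LN 1 to 4. All LN libraries lay above all Spleen libraries. The difference was 1.47 ± 0.65 (limma, adjusted p = 0.448). The WT tumor libraries 2 to 4 had 3.91, 0.509 and 0.644 FPKM, and the KO tumor libraries 1 to 3 had 0.320, 1.40 and 0.797. WT tumor against LN gave -1.60 ± 0.70 (limma, adjusted p = 0.281), and WT tumor 2 lay inside the LN range.

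Acad9 (ENSMUSG00000027710, GRCm38 chr3:36065979-36092853) also serves the assembly of respiratory complex I. It was at 0.454, 3.04, 2.72 and 0.888 FPKM in LN 1 to 4 and at 0.332, 0.114 and 0 in WT tumor 2 to 4. Every WT tumor library was below every LN library. The difference was -1.15 ± 0.71 (limma, adjusted p = 0.472). WT tumor 3 and 4 were under the level of 3 reads per kilobase of transcript in those libraries, 0.224 and 0.208 FPKM. WT tumor 2 was just above its own such level, 0.281 FPKM. Spleen 1 to 4 had 0, 6.37, 2.01 and 0 FPKM, so the tumor values lay within the Spleen range. KO tumor 1 to 3 had 0.106, 1.05 and 0.474 FPKM.

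Acad10 (ENSMUSG00000029456, GRCm38 chr5:121621026-121660514) is an acyl-CoA dehydrogenase family member of less well known substrate. It was at 5.75, 0.147, 1.63 and 4.74 FPKM in Spleen 1 to 4 and at 0.0965, 0 and 0 in WT tumor 2 to 4. Every WT tumor library was below every Spleen library, by a narrow gap to Spleen 2. The difference was -1.67 ± 0.65 (limma, adjusted p = 0.257). LN 1 to 4 had 0.681, 0, 1.58 and 1.95 FPKM, and KO tumor 1 to 3 had 0, 0 and 1.58. It was listed at 0 in 5 libraries. The gap between the groups lies between WT tumor 2 and Spleen 2, and both values are under the level of 3 reads per kilobase of transcript in those libraries, 0.281 and 0.243 FPKM. Acadm, Acad9 and Acad10 were below the filter in the tumor fit, and limma without the filter gave adjusted p-values of 0.864, 0.754 and 0.755.

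Of the later steps of the mitochondrial spiral, Acaa2, Echs1, Hadha and Hadhb had higher means over 14 libraries than each acyl-CoA dehydrogenase analysed. Hadh, with a mean of 6.72 FPKM, was below Acadl with 8.81. These are levels as listed, and listed zeros such as those of Acadvl can be failed estimates. Hadha and Hadhb encode the alpha and beta subunits of the trifunctional protein, which hydrates, oxidizes and cleaves long chains. Hadha was at 7.05 to 53.7 FPKM and Hadhb at 3.20 to 26.8. Hadha exceeded Hadhb in 12 of 14 libraries, with a ratio from 0.697 to 8.48. The median ratio was 4.81 in Spleen, 2.15 in LN, 1.12 in WT tumor and 1.26 in KO tumor libraries. Hadhb was 5.10, 3.20, 7.59 and 8.79 FPKM in Spleen 1 to 4, and 16.1, 18.2, 7.11 and 12.5 in LN 1 to 4. LN 3 lay inside the Spleen range, and the difference of 1.01 ± 0.51 did not pass (limma, adjusted p = 0.536). In WT tumor against Spleen, Hadhb differed by 0.87 ± 0.55 (limma, adjusted p = 0.526) and Hadha by -0.85 ± 0.66 (adjusted p = 0.608). The difference between these 2 differences was not tested.

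Acaa2 (3-ketoacyl-CoA thiolase) was at 20.4 to 106 FPKM in Spleen and 37.1 to 68.7 in LN. It was 1.41, 112 and 10.5 FPKM in WT tumor 2 to 4 and 7.79, 41.2 and 37.4 in KO tumor 1 to 3. WT tumor 3 held the highest and WT tumor 2 the lowest value of all 14 libraries. The difference of WT tumor against LN was -1.86 ± 0.95 (limma, adjusted p = 0.369). Leaving out WT tumor 3 gave an adjusted p of 0.0279, below the threshold, while the smallest adjusted p of any of the genes over all 17 alternatives of this comparison ran from 0.0279 to 0.346. Echs1 (enoyl-CoA hydratase) also peaked in WT tumor 3, at 99.7 FPKM, against 10.8 and 6.73 in WT tumor 2 and 4. Hadh (hydroxyacyl-CoA dehydrogenase) was at 32.5 FPKM in WT tumor 3, 6.30 in WT tumor 2 and 1.32 in WT tumor 4. WT tumor 3 thus had the group's highest value of all 3 genes. In KO tumor 1 to 3, Hadh was at 3.80, 0.577 and 0.944 FPKM, and the difference from WT tumor was -1.76 ± 1.04 (limma, adjusted p = 0.724).

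The auxiliary enzymes handle double bonds that the spiral cannot. Ech1 was the most stable of the pathway within WT tumor, at 192, 148 and 190 FPKM in WT tumor 2 to 4. It was at 82.1, 173, 68.4 and 56.0 FPKM in Spleen 1 to 4, at 243, 165, 144 and 150 in LN 1 to 4, and at 245, 142 and 118 in KO tumor 1 to 3. Spleen 2 was the Spleen library inside the range of the LN and WT tumor libraries, and the other 3 lay below them. The difference was 1.02 ± 0.35 in WT tumor against Spleen (limma, adjusted p = 0.188) and 0.99 ± 0.33 in LN against Spleen (adjusted p = 0.259). Without Spleen 2 the adjusted p in WT tumor against Spleen was 0.0403. Over the 17 alternatives of that comparison the smallest adjusted p of any of the genes ran from 0.0403 to 0.318. WT tumor and LN hardly differed in the estimate for Ech1 (0.03 ± 0.35, 95% interval -0.73 to 0.79), and KO tumor and WT tumor gave -0.13 ± 0.33 (95% interval -0.87 to 0.61).

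Eci1 and Eci2, the mitochondrial and peroxisomal enoyl-CoA isomerases, varied from 3.59 to 104 FPKM and from 0.0740 to 10.9 FPKM. Eci1 was 3.59, 36.2 and 104 FPKM in WT tumor 2 to 4, a spread as wide as over all groups. Decr1, the mitochondrial 2,4-dienoyl-CoA reductase, was 4.03, 13.3, 9.74 and 29.9 FPKM in LN 1 to 4, and 6.93, 1.06 and 0.117 in WT tumor 2 to 4. WT tumor 2 lay inside the LN range. The difference was -2.24 ± 0.95 (limma, adjusted p = 0.272). KO tumor 1 to 3 had 3.34, 28.7 and 8.38 FPKM, and KO tumor against WT tumor gave 2.02 ± 1.002 (limma, adjusted p = 0.647). Decr2, its peroxisomal relative, was at 2.78, 9.24 and 4.63 FPKM in KO tumor 1 to 3 and at 1.83, 7.42 and 0.127 in WT tumor 2 to 4. The difference was 1.01 ± 0.90 (limma, adjusted p = 0.827).

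In the peroxisomal group, Acaa1a (peroxisomal thiolase) was the most abundant at 13.2 to 119 FPKM. Its near-identical copy Acaa1b was below it in all 14 libraries, and the split of reads between these copies is uncertain. Hsd17b4 (bifunctional enzyme) was at 1.53 to 37.3 FPKM in Spleen, 2.81 to 15.005 in LN, 0.0347 to 28.4 in WT tumor and 0.0549 to 5.08 in KO tumor. Its difference in WT tumor against Spleen was -1.57 ± 1.12 (limma, adjusted p = 0.580). Acox3 (an acyl-CoA oxidase for branched chains) was at 0.399 to 8.19 FPKM. Ehhadh (the other bifunctional enzyme) was listed at 0 in 13 libraries and at 0.0395 FPKM in KO tumor 1. For its 1 transcript of 2981 bases, 3 reads would give 0.0470 to 0.0942 FPKM, for counting error only. Its level was thus under that limit in every library.

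Etfa and Etfb encode the subunits of 1 heterodimer, and Etfdh the oxidoreductase that hands its electrons to ubiquinone. Etfb exceeded Etfa in all 14 libraries, by 5.64-fold to 1953-fold. The highest ratios, in WT tumor 2 and 3, rest on Etfa values of 0.0669 and 0.160 FPKM, under the level of 3 reads per kilobase in those libraries (0.281 and 0.224 FPKM). Of the 1164 exonic bases of Etfb, 53.0% are shared with Gm45233, a gene on the same strand, so that part of its reads could belong there. Etfb was at 98.4 to 220 FPKM in Spleen, 71.9 to 118 in LN, 97.4 to 188 in WT tumor and 70.3 to 111 in KO tumor. LN against Spleen gave -0.77 ± 0.32 (limma, adjusted p = 0.405), and KO tumor against WT tumor -0.62 ± 0.36 (adjusted p = 0.720).

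Etfa (ENSMUSG00000032314, GRCm38 chr9:55454508-55512243) was at 2.34, 9.58, 15.7 and 0.250 FPKM in Spleen 1 to 4 and at 5.22, 13.98, 7.05 and 7.75 in LN 1 to 4. It was at 0.0669, 0.160 and 4.04 FPKM in WT tumor 2 to 4 and at 9.54, 4.71 and 12.5 in KO tumor 1 to 3. All WT tumor libraries lay below all LN and all KO tumor libraries, by a small margin for WT tumor 4, and Spleen 4 was as low as the WT tumor libraries. Etfa differed by -2.29 ± 0.89 in WT tumor against LN (limma, adjusted p = 0.225) and by 2.34 ± 0.85 in KO tumor against WT tumor (adjusted p = 0.460). Neither passed the test, and both comparisons use the same WT tumor libraries. Macrophage and monocyte markers summed to 1.18 to 107 FPKM in WT tumor and 306 to 415 in KO tumor, and their part in the Etfa values was not tested. In these bulk samples fewer cells of a type and less RNA per cell cannot be told apart. Etfdh was at most 0.0361 FPKM in Spleen and was 0.194 to 0.926 in LN, 1.0035, 0.0616 and 6.29 in WT tumor 2 to 4, and 1.11, 0 and 0 in KO tumor 1 to 3. Etfdh was below the filter in the fit of Spleen, LN and WT tumor, and KO tumor against WT tumor gave -0.96 ± 0.77 (limma, adjusted p = 0.806).

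**Figure D4:**
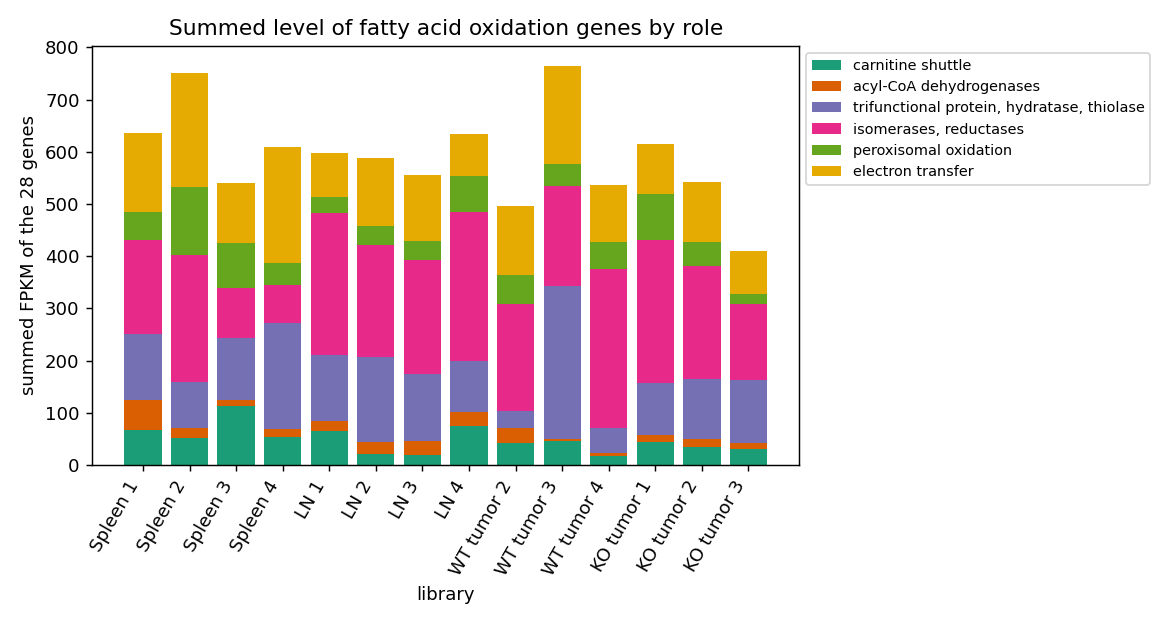
Summed FPKM of the 28 genes (y axis) in each library (x axis), stacked by role. Sums run from 410 in KO tumor 3 to 764 in WT tumor 3, and the isomerase and electron transfer genes take the larger part of most bars.

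The summed level was 634 ± 87.7 FPKM in Spleen (SD, n = 4), 594 ± 31.9 in LN (SD, n = 4), 599 ± 145 in WT tumor (SD, n = 3) and 523 ± 104 in KO tumor (SD, n = 3). The ranges of all 4 groups overlapped. By role, the carnitine genes summed to 71.8 ± 28.3 FPKM in Spleen (SD, n = 4), 44.8 ± 28.5 in LN (SD, n = 4), 34.9 ± 15.3 in WT tumor (SD, n = 3) and 36.6 ± 6.36 in KO tumor (SD, n = 3). The libraries of both tumor groups (17.4 to 45.9 FPKM in WT tumor and 31.3 to 43.6 in KO tumor) lay below all Spleen libraries (52.7 to 113) in this sum, while LN libraries (20.1 to 73.9) overlapped with those of every group. In the sums of the other roles, both tumor groups overlapped with Spleen. The peroxisomal sum, for example, was 42.4 to 129 FPKM in Spleen, 40.8 to 56.0 in WT tumor and 18.7 to 89.6 in KO tumor. No test was made of the carnitine sum, and no share over other sets of genes was computed. Among the 24 genes tested in the fit of Spleen, LN and WT tumor, the Spleen group had the highest mean for 11. The KO tumor group had the lowest mean for 11 of these 24, but its libraries took no part in the filter. Of the genes below that filter, Crat and Ehhadh had their highest mean in KO tumor, and Acadvl and Etfdh in WT tumor. The shares over all genes were not computed, so nothing is concluded from these counts.

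Spread between libraries of a group was large for these genes. Their median coefficient of variation was 72.6% in Spleen, 61.6% in LN, 114% in WT tumor and 66.1% in KO tumor, against 73.5, 57.2, 75.8 and 59.8% for all genes. Among genes with a group mean of at least 10 FPKM the median for this pathway was 66.4% in Spleen, 51.9% in LN, 71.3% in WT tumor and 54.9% in KO tumor, against 48.8, 34.6, 49.6 and 35.2% for all genes. With this lower limit on the mean, the pathway's median was above that of all genes in every group. Without it, the pathway's median was below that of all genes in Spleen and above it in LN, WT tumor and KO tumor. The limit does not match the pathway's genes to others of the same level. Whether they vary more than genes of like level was therefore not tested. Of the 24 genes tested, Ech1 had the lowest coefficient of variation in WT tumor (14.2%) and Acad10 the highest (173%). Acad10 was at 0.0965, 0 and 0 FPKM in WT tumor 2 to 4, under the level of 3 reads per kilobase. Its 173% is the value that a single nonzero library in this group always gives, so it does not measure steadiness.

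Genes upstream and around the pathway were examined in 3 further lists: fatty acid activation and thioesterases (18 genes), other oxidation enzymes and peroxisomal import (21 of 22 with a row), and regulators and carnitine supply (15 of 16). The limma test called none of the 12, 18 and 8 genes tested in the tissue comparisons and none of the 10, 11 and 6 tested in KO tumor against WT tumor. At an unadjusted p under 0.05, the lists had 4, 2 and 2 genes in WT tumor against Spleen, or 33.3, 11.1 and 25.0% of those tested, against 14.3% of all genes. There were 2, 2 and 0 when WT tumor was set against LN (16.7, 11.1 and 0%, against 15.6%). LN against Spleen had 2, 1 and 1 (16.7, 5.56 and 12.5%, against 10.4%). KO tumor against WT tumor had 0, 0 and 1 (0, 0 and 16.7%, against 8.64%). Groups did not overlap for 2, 2 and 1 of the 12, 18 and 8 genes in WT tumor against Spleen, against 11.5% of all genes. The counts were 3, 5 and 0 against LN (all genes 17.0%) and 2, 1 and 0 in LN against Spleen (all genes 7.87%). In KO tumor against WT tumor they were 0, 0 and 1 of 10, 11 and 6 (all genes 14.5%).

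The smallest adjusted p of these lists belonged to Acss1, an acetyl-CoA synthetase of mitochondria. It was at 14.3, 12.1, 14.3 and 26.1 FPKM in LN 1 to 4 and at 0.592, 1.48 and 0.825 in WT tumor 2 to 4 (difference -3.14 ± 0.82, limma, adjusted p = 0.0590). The groups did not overlap, and Spleen 3 at 0.701 FPKM was as low as WT tumor while Spleen 1, 2 and 4 had 22.7, 23.3 and 6.64. Acot13, a thioesterase, was at 12.5, 20.6, 9.05 and 8.46 FPKM in Spleen 1 to 4 and 60.5, 48.5 and 21.6 in WT tumor 2 to 4 (1.67 ± 0.46, limma, adjusted p = 0.0998). In LN 1 to 4 it was at 34.1, 46.1, 45.3 and 54.1 FPKM, likewise above every Spleen library (1.81 ± 0.43, limma, adjusted p = 0.0980), and WT tumor against LN gave -0.15 ± 0.46. All LN and WT tumor libraries thus lay above all Spleen libraries, and neither difference passed the test. Esrra, a nuclear receptor known to drive oxidation genes, was at 15.8, 19.1, 7.47 and 58.3 FPKM in Spleen 1 to 4 and 0.997, 2.22 and 7.27 in WT tumor 2 to 4 (-2.43 ± 0.70, limma, adjusted p = 0.110). In LN it ran from 4.40 to 7.88 FPKM, with LN against Spleen at -1.48 ± 0.64 (limma, adjusted p = 0.441) and WT tumor against LN at -0.95 ± 0.70 (adjusted p = 0.555). These 3 were named after their values were seen. Of the PPAR receptors and coactivators, Ppara, Pparg and Ppargc1a were listed at 0 in at least 12 of the 14 libraries. The coactivator Ppargc1b was at 0 to 4.55 FPKM, above 1 FPKM in libraries of all 4 groups. Ppard was at most 0.559 FPKM outside KO tumor and at 0.0185, 0.390 and 1.68 in KO tumor 1 to 3.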

How the data were processed

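FPKM values were computed by the authors and deposited as 1 table of 22255 genes for each of 14 libraries. The submitters' processing notes list Cufflinks 2.2.1 and Cuffdiff, the aligner TopHat2 2.1.1 with Bowtie2 2.2.9, the trimmer Trimmomatic, and DESeq2. They name the build as mm10 or GRCm38, and these steps were not repeated. Positions came from GENCODE M21 on GRCm38, with 22196 identifiers matched and 59 not.

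Genes with at least 1 FPKM in 3 libraries of a fit were tested by robust limma-trend (limma 3.58.1, R 4.3.3) on log2(FPKM + 1), a scale that understates differences of low genes. Spleen, LN and WT tumor (11 libraries) were 1 fit, and the tumor groups (6 libraries) another. Adjustment was Benjamini-Hochberg over all genes tested, with a threshold of 0.05. The script was tested on simulated data. Depth came from steps between low values of genes with 1 transcript: 93.0 to 96.0% of them were whole reads within 0.1. That depth estimate entered no test, and no count test was run.

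Genes were named by rule: the carnitine shuttle genes, and any gene past the threshold or with groups that do not overlap and a difference of at least 1, are given with the value of every library. Other genes given library by library were named after their values were seen. The genes and lists were chosen with earlier results of these data known. Alternatives varied the pseudocount, filter, scaling, libraries in the fit, weights and replicate block, and left out each library.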

Additional observations from a re-analysis of the deposited data

Results flagged for a closer look

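In groups of 4 libraries, a library was marked where its gap to the nearest of the others took most of the group's range. Of 52 pairs of gene and group examined, 5 were marked (9.62%). Chance marks about 1 in 20 where values are normally distributed. In these data the same rule marked 2679 of 19160 pairs over the genes tested in the fit of Spleen, LN and WT tumor, and 7519 of 26504 (28.4%) over all genes of the tables, so the share here was not above that of other genes. Slc25a20 was at 15.04 FPKM in Spleen 3, against 0.0489 to 2.37 in the other Spleen libraries. Acadl was at 46.9 FPKM in Spleen 1, against 0.0909 to 7.21. Decr2 was at 3.93 FPKM in LN 3, against 0.125 to 0.610, and Acox3 at 8.19 in LN 1, against 1.33 to 2.13. Crat was at 0.0102 FPKM in LN 3 and listed at 0 in the other LN libraries, a value under that of 3 reads per kilobase. The 5 values fell in 4 libraries, and LN 3 held 2 of them. The groups of 3 tumor libraries were not examined in this way.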

How the results depend on the processing

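Over 67 alternatives in the 4 comparisons, 65 called none of the fatty acid oxidation genes. The exceptions were Ech1 without Spleen 2 and Acaa2 without WT tumor 3, given above. The number of all genes past the threshold moved more. In WT tumor against Spleen (183) it was 112 with no filter, 107 with array weights, 87 with only the 2 groups in the fit and 82 to 173 without 1 library. In WT tumor against LN (292) it was 183 to 268 without 1 library. In LN against Spleen (48) it was 16 with no filter, 22 with the filter on more libraries and 13 to 35 without 1 library. In KO tumor against WT tumor (23) it was 0 with no filter, where no gene of any kind was called by limma, 60 with all 14 libraries in the fit and 9 to 15 without 1 library.

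Deviations of same-numbered libraries correlated at -0.0268 to -0.0016, so no pairing by replicate number was seen. Such values cannot tell whether same-numbered libraries came from the same mouse. With the replicate block the counts were 89, 186, 20 and 6, in the order above, and none of the fatty acid oxidation genes was called. The block also turned Cpt2 in KO tumor against WT tumor to -0.58.

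The genes' median in WT tumor against LN was -0.27 with no filter, -0.48 with only the 2 groups in the fit and -0.84 to -0.10 without 1 library. It was -0.35 to 0.10 in LN against Spleen and -0.017 to 0.40 in KO tumor against WT tumor without 1 library, and -0.67 to -0.41 in WT tumor against Spleen. Of the values of genes given in full, 335 kept their direction and 11 reversed. Crot in WT tumor against LN was -0.03 when scaled to the protein-coding total and -0.43 to 0.68 without 1 library. Without 1 library, Slc25a20 ran from -1.001 to 0.31 in LN against Spleen and from -0.040 to 1.15 in KO tumor against WT tumor. In that comparison Cpt2 ran from -0.017 to 1.37 over the 3 fits in which it passed the filter, Crot from -0.999 to 0.17 and Cpt1a from -1.28 to 0.085. The cause was not tested. The median of all genes moved by over 0.1 only in WT tumor against LN, with no filter (0.12) and quantile normalization (0.11). Groups of 3 and 4 libraries, low levels and listed zeros limit what these data can show for single genes.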
